A study of Rattus norvegicus with 48 samples.

Results

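The genes described here are 10 genes of the stomach and intestinal epithelium that were measured in rat liver and in rat liver lesions: Tff1, Tff3, Gkn2, Muc1, Klf5, Krt20, Ctse, Anxa13, Tspan8 and Reg4. They are 10 of the 13337 named genes on the array, each read by 1 probe, and all 10 had a probe in the deposited table. The genes were chosen by their log2 intensity and detection p-value in these same arrays, so their levels and their differences from control liver are a description, with no test. The split asked of the list was between genes that rose generally with lesion stage or with keratin 19 (Krt19) and genes raised in a single array of advanced carcinoma.

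The mucous lining of the stomach and intestine secretes mucins together with trefoil factors, small peptides that help a wounded epithelium to close, and gastrokines, secreted proteins of the gastric surface cell. Hepatocytes and bile duct cells arise from the same embryonic endoderm as the gut lining. KRT19 is a keratin of bile ducts and of liver progenitor cells and is used to mark a subset of hepatocellular lesions.

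The lesions were grown in male F-344 rats by a carcinogen protocol. The labels' protocols give an injection of diethylnitrosamine at 150 mg/kg, 2 weeks of recovery, a diet with 0.02% 2-acetylaminofluorene and a partial hepatectomy in between. The 48 samples were microdissected from frozen liver sections, 1 array each: 10 control livers, 10 nodules labelled KRT19-positive and 10 labelled KRT19-negative at 10 weeks, 4 adenomas and 5 early hepatocellular carcinomas (eHCC) at 10 months, and 9 advanced hepatocellular carcinomas (aHCC) at 14 months. The age and treatment of the control rats were not given, so lesion stage, age and treatment cannot be told apart. Lesion stage also runs with sample number, as described below. The labels do not tie samples to animals, so lesions may share a rat, and any p-value reflects only how far these samples scatter and can be too low.

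Levels are log2 of the deposited intensity, and a probe counts as detected where its deposited detection p-value was under 0.05. Between 8323 and 11434 probes were detected per array. Samples are called by the number in their title, which runs over all groups. The aHCC sample 29 stood apart from all other arrays, with a median correlation of 0.857 with them over all probes, and eHCC sample 39 came next at 0.939. The other 46 arrays had medians between 0.953 and 0.978. In sample 29, 397 probes were at least 1 log2 unit above every other array, against 42 in sample 39. Some hepatocyte genes were also low in both. Among 6 hepatocyte genes with a probe, 4 in sample 29 and 3 in sample 39 lay below all of the other 46 arrays. The share of all probes below those arrays was not computed, so these counts are descriptions. Alb and Tf lay within the range of those arrays in both samples, near the highest log2 intensity of any probe (15.54). The Krt19 transcript followed the label in nodules 1 to 10 and ran against it in nodules 15 to 24, so nodules are named here by their label only. The group differences and correlations that these 2 samples moved most are given with and without them.

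A gene was called general where the aHCC median exceeded the control median by 1 log2 unit or more, and single-array where 1 aHCC array exceeded all other 47 arrays by 1 or more. Under this rule 4 genes were general (Tff3, Krt20, Ctse and Tspan8), 3 were single-array (Tff1, Gkn2 and Klf5), 0 were both and 3 were neither (Muc1, Anxa13 and Reg4). The general gene closest to the threshold was Tff3 at 1.08, and the nearest gene outside was Klf5 at 0.42. The single-array gene closest to the threshold was Tff1, whose top array led the next by 2.19, and the nearest gene outside was Ctse, with a lead of 0.57. In all 3 single-array genes the top array was aHCC 29 and the next was eHCC 39. Across the list, aHCC 29 was the highest array for 6 genes and eHCC 39 for 3, and these 2 arrays held the first and second place for 7 genes. In bulk samples such as these, fewer cells of a type and less RNA per cell cannot be told apart.

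**Figure D1:**
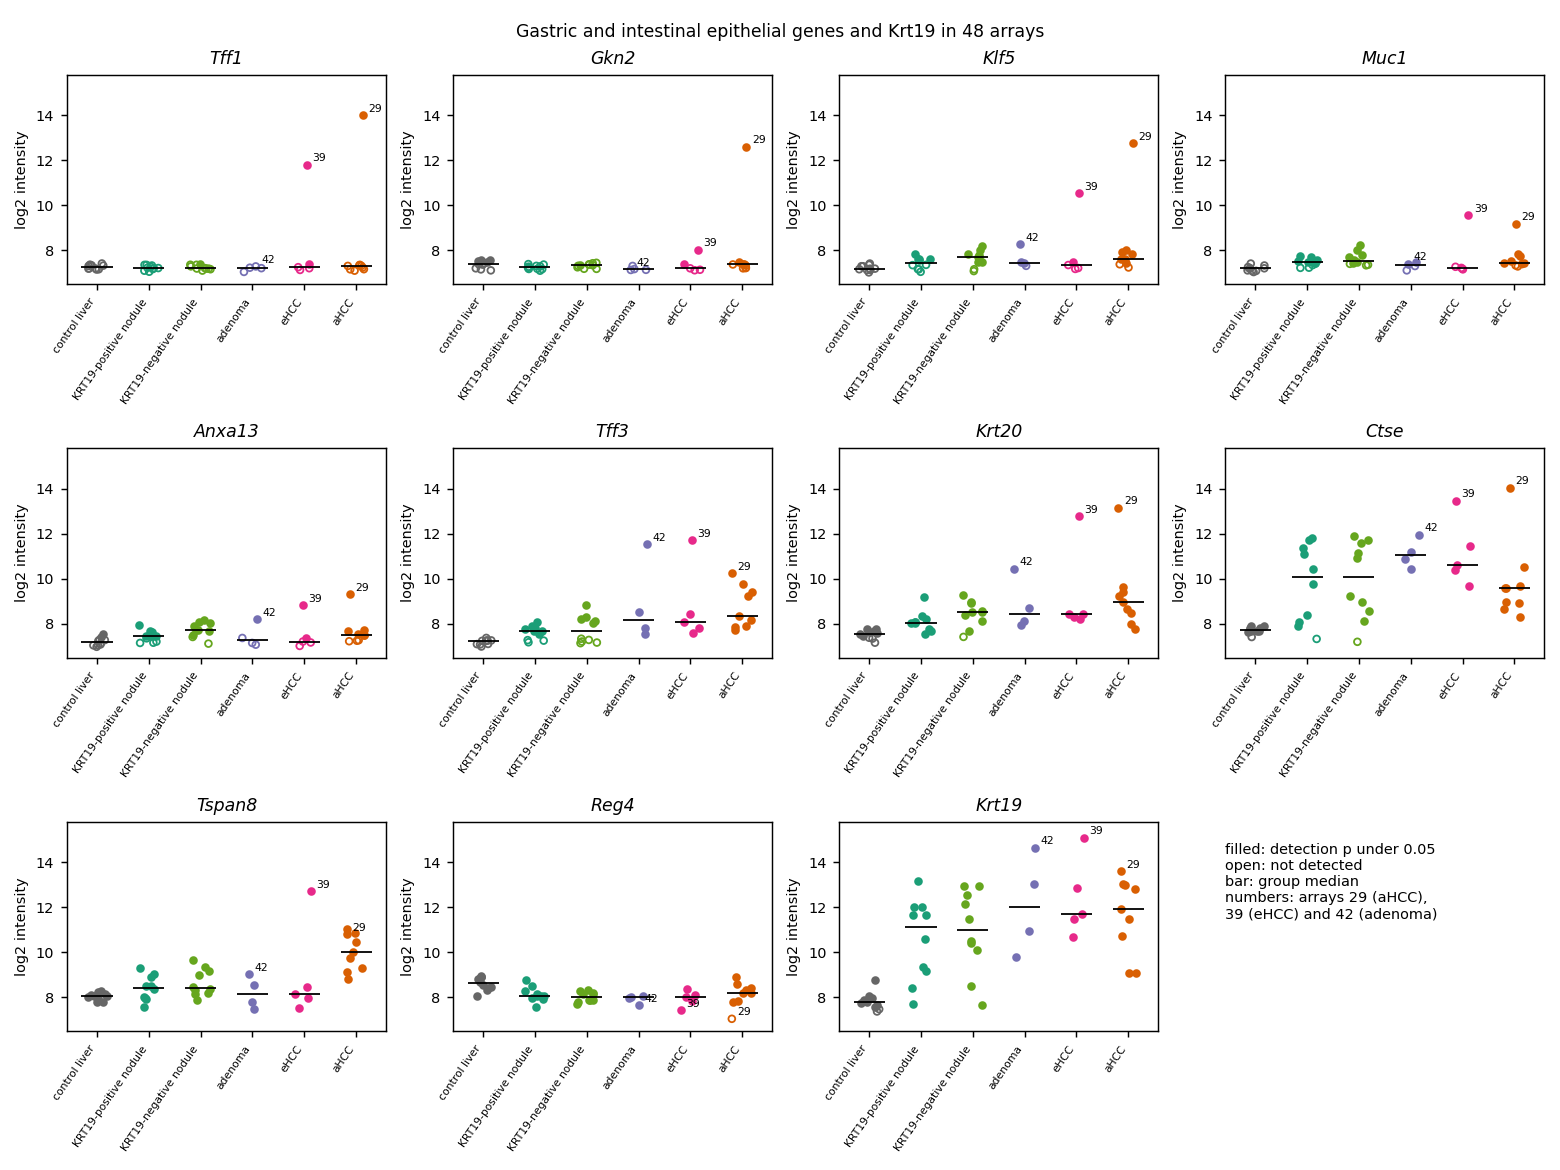
Log2 intensity of the 10 genes and Krt19 in each of the 48 arrays, by group in order of stage, with filled points for detected probes, open points for undetected ones and a bar at the group median. Tff1, Gkn2 and Klf5 lie far above all other arrays in aHCC 29 (13.98, 12.60 and 12.76), while Ctse is spread from 7.20 to 11.91 among the nodules and Tspan8 is raised across the aHCC.

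The bases upstream of the start of transcription are printed for 4 genes, 1 single-array gene and 3 general genes, because they let a reader compare the proximal promoters of genes that split in these data. They are the 250 bases before the gene's start, 5′ to 3′ on the gene's own strand, from RefSeq on the GRCr8 rat assembly. Gkn2 lies at chr4:121375344-121375593, plus strand, Tff3 at chr20:9199334-9199583, minus strand, Krt20 at chr10:84890286-84890535, minus strand and Ctse at chr13:45643965-45644214, plus strand. Capitals mark matches on either strand to any of 3 short motifs. The first is TATAAA, the core promoter box that positions the start of transcription in many tissue-restricted genes. The second is AGATAA, which is a site for GATA transcription factors of the gut and liver. The third is GGGCGG, the box bound by Sp1 and related factors.
Gkn2: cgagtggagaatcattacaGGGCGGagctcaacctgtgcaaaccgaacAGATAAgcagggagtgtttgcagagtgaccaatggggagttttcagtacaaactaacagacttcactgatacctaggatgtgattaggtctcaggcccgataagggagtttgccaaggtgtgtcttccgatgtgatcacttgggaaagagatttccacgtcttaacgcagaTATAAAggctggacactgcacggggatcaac
Tff3: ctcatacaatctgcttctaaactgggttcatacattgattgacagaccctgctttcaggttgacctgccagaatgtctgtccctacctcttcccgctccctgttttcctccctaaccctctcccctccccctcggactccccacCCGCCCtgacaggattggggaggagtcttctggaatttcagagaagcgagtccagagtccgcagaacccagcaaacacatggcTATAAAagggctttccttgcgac
Krt20: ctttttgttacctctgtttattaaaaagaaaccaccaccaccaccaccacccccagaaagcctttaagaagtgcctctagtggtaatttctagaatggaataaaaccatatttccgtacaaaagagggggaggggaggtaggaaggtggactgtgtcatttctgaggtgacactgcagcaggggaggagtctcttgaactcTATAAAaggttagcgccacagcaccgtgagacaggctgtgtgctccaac
Ctse: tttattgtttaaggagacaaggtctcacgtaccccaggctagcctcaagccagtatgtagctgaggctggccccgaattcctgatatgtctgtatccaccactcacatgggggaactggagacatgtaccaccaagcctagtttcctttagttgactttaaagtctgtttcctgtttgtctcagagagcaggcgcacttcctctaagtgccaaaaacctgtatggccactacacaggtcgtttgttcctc

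Entries were found for 8 of the 10 genes, all but Tff1 and Anxa13. The core promoter box occurred in 4 of the 8 windows (Tff3, Gkn2, Muc1 and Krt20), against 12.9% of 33469 rat windows of the same length. Its first base lay 23 bases before the start in Tff3, 31 in Gkn2, 33 in Muc1 and 49 in Krt20. The Sp1 box occurred in 3 of 8 (Tff3, Gkn2 and Muc1), against 30.5% of all windows, and the GATA factor site in Gkn2 only among the 8, against 10.3%. No 2 of these matches overlapped, and the windows of Ctse, Klf5, Tspan8 and Reg4 held none of the 3 letter strings. Neither the general nor the single-array genes shared a motif throughout.

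Tff1, the trefoil factor secreted by surface mucous cells of the stomach, was absent from nearly all livers. It was detected in 0 of 10 control livers and in 4 lesions: nodule 16, eHCC 39, eHCC 45 and aHCC 29. Its lowest, median and highest level was 7.15, 7.25 and 7.42 in control liver, 7.05, 7.22 and 7.36 in nodules labelled KRT19-positive and 7.10, 7.20 and 7.40 in those labelled KRT19-negative. The 4 adenomas (37, 41, 42 and 43) read 7.23, 7.04, 7.29 and 7.21, and the 5 eHCC (38, 39, 40, 44 and 45) read 7.25, 11.79, 7.13, 7.21 and 7.40. Over the 9 aHCC the lowest, median and highest were 7.10, 7.31 and 13.98. Samples 29 and 39 were high and all other lesions lay between 7.04 and 7.40. Against the limit of detection in control liver, the mean over control arrays of their lowest detected level, Tff1 was at least 93.1-fold higher in aHCC 29 and at least 20.4-fold higher in eHCC 39. The aHCC mean minus the control mean was 0.73 with sample 29 and -0.02 without it.

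Gkn2, a gastrokine of gastric surface cells, was high in a single array. It read 12.60 in aHCC 29, and the next array was eHCC 39 at 8.01. The other aHCC lay between 7.20 and 7.50, and the control livers between 7.11 and 7.59, 4 of which passed the detection threshold. The adenomas read 7.31, 7.14, 7.13 and 7.17, and the eHCC read 7.20, 8.01, 7.14, 7.12 and 7.38. Nodules ranged from 7.10 to 7.39 where labelled KRT19-positive and from 7.18 to 7.45 where labelled KRT19-negative. Samples 29 and 39 stood above the control range and no other sample did. Of 13314 named genes ranked by the lead of aHCC 29 over the next array, Gkn2 was the fifth, with a lead of 4.58.

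Klf5, a zinc finger transcription factor of the proliferating intestinal crypt, was detected in 0 of 10 control livers and in 25 of 38 lesions. The control livers read 7.02, 7.19 and 7.41 (lowest, median and highest), the nodules labelled KRT19-positive 7.05, 7.46 and 7.84, and those labelled KRT19-negative 7.08, 7.69 and 8.20. The adenomas read 7.43, 7.47, 8.27 and 7.31, the eHCC 7.48, 10.54, 7.22, 7.35 and 7.18, and the aHCC 7.24, 7.61 and 12.76. Samples 29, 39 and, to a lesser extent, adenoma 42 stood out, and the lesion groups otherwise overlapped the controls. The excess over the detection limit of control liver was at least 39.8-fold in aHCC 29, at least 8.55-fold in eHCC 39 and at least 1.77-fold in adenoma 42. The aHCC mean minus the control mean was 0.98 with sample 29 and 0.42 without it. Klf5 was therefore high in the same arrays as Tff1, on top of a small shift in many lesions.

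Muc1, a membrane-bound mucin of many glandular epithelia, and Anxa13, an annexin of the intestinal epithelium, fell in neither class. Muc1 was detected in 23 lesions and 0 control livers. It read 9.19 in aHCC 29 and 9.56 in eHCC 39, against 7.04 to 7.41 in control liver, which is at least 3.35-fold and at least 4.35-fold above the detection limit. The third array for Muc1 was nodule 7 at 8.26, and no other aHCC exceeded 7.83. Anxa13 read 9.31 in aHCC 29, 8.82 in eHCC 39 and 8.20 in adenoma 42, against 6.98 to 7.57 in control liver. Nodules labelled KRT19-negative reached 8.18 for Anxa13 and had a median of 7.73, against 7.18 in control liver, and the ranges overlapped. Both genes thus had the same top arrays as the single-array genes, with leads too small for the threshold or with eHCC 39 ahead.

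Ctse, which encodes cathepsin E, an aspartic protease abundant in gastric surface cells, had the largest median excess over control liver of the 10 genes in nodules, adenomas and eHCC. Its lowest, median and highest level was 7.42, 7.73 and 7.91 in control liver, 7.33, 10.09 and 11.81 in nodules labelled KRT19-positive and 7.20, 10.10 and 11.91 in those labelled KRT19-negative. The adenomas read 10.89, 11.18, 11.96 and 10.42, the eHCC 9.66, 13.47, 11.46, 10.37 and 10.59, and the aHCC 8.31, 9.60 and 14.04. All adenomas, eHCC and aHCC lay above all control livers, and the nodules spread from below the control range to 11.91. The median minus the control median was 2.35 and 2.36 in the nodules labelled KRT19-positive and KRT19-negative, 3.31 in adenomas, 2.86 in eHCC and 1.87 in aHCC, so it did not climb with stage. Without sample 29 the aHCC ranged from 8.31 to 10.51, still above the controls, and their mean was 2.93-fold the control mean, against 4.22-fold with it.

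Tff3, the trefoil factor of intestinal goblet cells that is also made by bile duct epithelium, was detected in 0 of 10 control livers and in 30 of 38 lesions. The control livers read 7.00, 7.25 and 7.38 (lowest, median and highest), the nodules labelled KRT19-positive 7.18, 7.69 and 8.10, and those labelled KRT19-negative 7.14, 7.69 and 8.86. The adenomas read 7.55, 7.83, 11.53 and 8.52, the eHCC 7.60, 11.70, 8.07, 8.45 and 7.81, and the aHCC 7.72, 8.33 and 10.24. No adenoma, eHCC or aHCC overlapped the control livers, while the nodules did. The highest arrays were eHCC 39 and adenoma 42, at least 19.1-fold and at least 17.0-fold above the detection limit of control liver, and aHCC 29 followed at 6.95-fold or more. Group means were at least 2.67-fold higher in adenomas, 2.44-fold in eHCC and 2.47-fold in aHCC. Without adenoma 42, eHCC 39 and aHCC 29 these bounds were 1.44-fold, 1.46-fold and 2.17-fold. Within the aHCC, sample 29 led the next array, sample 36 at 9.75, by only 0.49.

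Krt20, a keratin of gastric surface cells and mature enterocytes, was detected in 37 of 38 lesions and in 7 of 10 control livers. Its lowest, median and highest level was 7.17, 7.56 and 7.77 in control liver, 7.57, 8.06 and 9.20 in nodules labelled KRT19-positive and 7.42, 8.51 and 9.28 in those labelled KRT19-negative. The adenomas read 7.94, 8.71, 10.45 and 8.14, the eHCC 8.23, 12.77, 8.43, 8.42 and 8.28, and the aHCC 7.75, 8.97 and 13.15. Adenomas and eHCC lay above all control livers and 1 aHCC fell inside the control range. In aHCC 29 the level was 49.05-fold the control mean and in eHCC 39 it was 37.7-fold. The mean minus the control mean was 1.72 in aHCC, against 1.24 without sample 29, and 1.69 in eHCC, against 0.81 without sample 39. Krt20 thus showed both a shift in most lesions and very high levels in the arrays that held Tff1, with a lead of aHCC 29 over eHCC 39 of only 0.38.

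Tspan8, a tetraspanin of the surface membrane of gut epithelium, differed from the other genes in its stage. All 48 arrays detected it. It read 7.79, 8.07 and 8.29 in control liver, 7.59, 8.43 and 9.31 in nodules labelled KRT19-positive and 7.86, 8.41 and 9.64 in those labelled KRT19-negative. The adenomas read 7.80, 7.49, 9.03 and 8.54, the eHCC 7.99, 12.71, 7.52, 8.45 and 8.14, and the aHCC 8.80, 10.03 and 11.01. All 9 aHCC lay above all control livers, whereas the nodule, adenoma and eHCC groups each overlapped them. The aHCC mean was 3.90-fold the control mean and 3.64-fold without sample 29, in which Tspan8 read 10.80 and was not the highest aHCC. The highest array of all was eHCC 39, 25.3-fold the control mean, and without it the eHCC mean minus the control mean was -0.03.

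Reg4, a secreted lectin of intestinal endocrine and goblet cells, went the other way. Its lowest, median and highest level was 8.07, 8.63 and 8.94 in control liver, 7.58, 8.07 and 8.75 in nodules labelled KRT19-positive and 7.71, 8.04 and 8.33 in those labelled KRT19-negative. The adenomas read 7.99, 8.01, 7.64 and 8.05, the eHCC 7.83, 7.42, 8.02, 8.09 and 8.38, and the aHCC 7.05, 8.22 and 8.89. The adenomas lay below all control livers and the other lesion groups overlapped them. The lowest of all 48 arrays was aHCC 29, the array with the highest Tff1 and Gkn2, and its probe was not detected there.

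**Figure D2:**
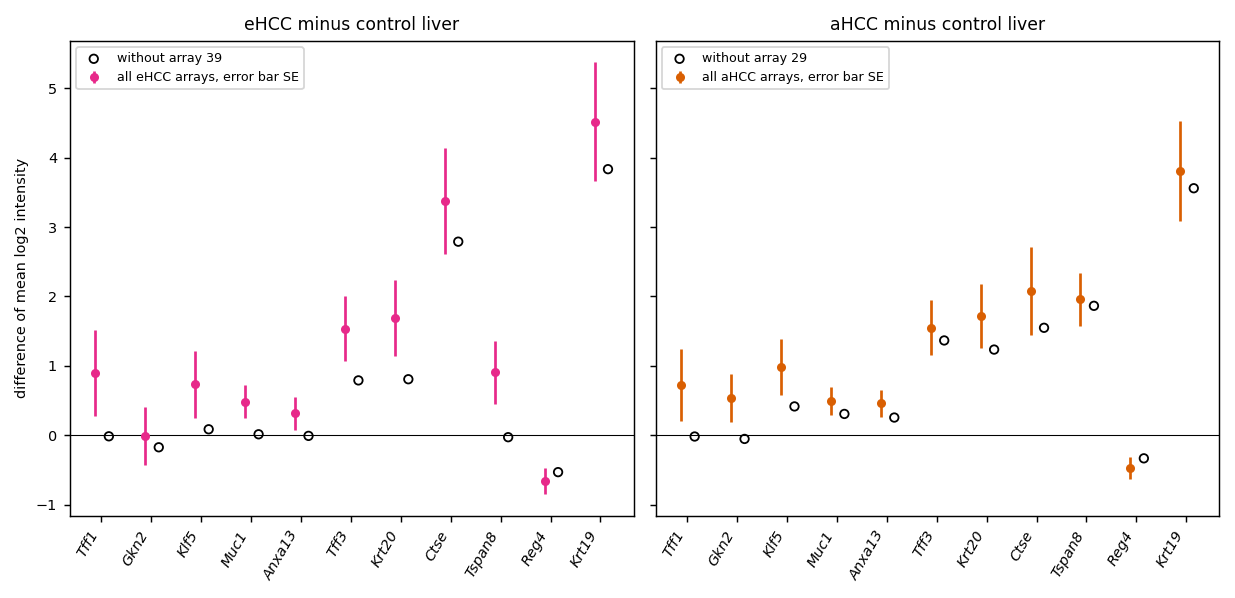
Mean log2 intensity of eHCC (left) and aHCC (right) minus that of control liver for the 10 genes and Krt19, with the standard error of the fit as bars, and the same difference without eHCC 39 or aHCC 29 as open circles. Tff1 goes to about the control level in both panels, whereas in aHCC the difference of Tspan8 is 1.96 with and 1.86 without sample 29.

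Each lesion group was set against control liver in 1 linear model over 13479 features (limma, Benjamini-Hochberg adjusted p under 0.05), in which all 10 genes passed the detection filter. Because these comparisons chose the genes, the counts are given beside the share of all features called and nothing is read from them. In aHCC 6 genes were called higher (Ctse, Klf5, Krt20, Muc1, Tff3 and Tspan8) and Reg4 lower, against 38.0% of all features called in either direction, 19.2% higher and 18.8% lower. In eHCC 3 were called higher (Ctse, Krt20 and Tff3) and Reg4 lower, against 32.2% of features in either direction, 17.0% higher and 15.1% lower. In adenomas 2 were called higher (Ctse and Tff3) and Reg4 lower, against 26.0% in either direction, 13.5% higher and 12.6% lower. In nodules labelled KRT19-positive, Ctse was called higher and Reg4 lower, against 18.7% of features in either direction, 9.69% higher and 8.98% lower. In those labelled KRT19-negative, Anxa13 and Ctse were called higher and Reg4 lower, against 19.5% in either direction, 9.83% higher and 9.70% lower. The median difference of the 10 genes was 0.86 in aHCC and 0.81 in eHCC, against -0.0051 and -0.0040 over all features. Without aHCC 29 the median of the 10 was 0.36 in aHCC, and without eHCC 39 it was 0.0031 in eHCC.

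Several calls depended on single arrays and on which control livers were used. The fits below reuse the arrays that chose the genes, so they describe the calls and are no support. With each of the 19 aHCC and control samples left out in turn, 36.0% to 42.2% of all features were called in aHCC. Ctse, Krt20, Tff3 and Tspan8 were called higher in aHCC every time. Klf5 was not called in 14 of these 19 fits and Muc1 not in 12, the fit without aHCC 29 among them in both cases. In nodules labelled KRT19-negative, Anxa13 was not called in 15 of 20 such fits. Without eHCC 39, Ctse was the only gene called higher in eHCC, with 25.8% of all features called. Without adenoma 42, Ctse was the only one called higher in adenomas, with 19.9% of features called. Sample numbers fall into 4 sets of 12 that each hold some control livers, and no label says what a set is. All nodules lie in samples 1 to 12 and 13 to 24, and all aHCC in samples 25 to 36. All adenomas and eHCC lie in samples 37 to 48. Lesion stage therefore runs with the set, and only the control livers link the sets. With the set as a block, Tspan8 was the only gene called in aHCC, where 15.4% of all features were called. Ctse and Reg4 were called in adenomas and eHCC, against 20.2% and 25.6% of features. In either nodule group 0 genes were called, against 11.3% of features in each, and Ctse kept a difference of 2.04 and 2.19. Within samples 25 to 36, the 9 aHCC exceeded the 3 control livers of that set by 1.86 for Tspan8, 1.98 for Ctse, 1.72 for Krt20 and 1.55 for Tff3.

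The nodules allowed Krt19 to be followed apart from stage, since its level ranged from 7.69 to 13.15 among samples taken at the same time. Ctse followed Krt19 most closely. Over 20 nodules Pearson's r between Ctse and Krt19 was 0.965, and it was 0.954 and 0.974 within the nodules of samples 1 to 12 and of samples 13 to 24 (n = 10 each). Tff3 gave 0.852 and 0.893 within these sets, Klf5 0.571 and 0.782, Krt20 0.583 and 0.767, and Anxa13 0.568 and 0.878. Tspan8 gave 0.474 and 0.408, Muc1 0.046 and 0.330, Reg4 -0.006 and -0.402, Gkn2 -0.596 and 0.344, and Tff1 -0.360 and -0.131. The points share a set and many share a lesion type, and most Gkn2, Tff1 and Muc1 levels among the nodules were near the detection limit, so these coefficients are descriptions only.

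Ctse and Tff3 therefore split the nodules as Krt19 did in both sets, and as the label did only in samples 1 to 12. In samples 1 to 12, nodules labelled KRT19-positive had a Ctse median of 11.38, against 8.59 in those labelled KRT19-negative. In samples 13 to 24 the medians were 8.08 in nodules labelled KRT19-positive, against 11.58 in those labelled KRT19-negative. The label groups did not overlap for Ctse within either set, with opposite directions, and the same held for Krt19. For Tff3 the medians were 7.83 in nodules labelled KRT19-positive, against 7.22 in those labelled KRT19-negative, in samples 1 to 12, and 7.28 against 8.22 in samples 13 to 24.

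Among the adenomas and carcinomas the relation to Krt19 differed by gene. Over all 18, r with Krt19 was 0.742 for Tff3, 0.720 for Krt20, 0.627 for Ctse and 0.439 for Tspan8, and without samples 29 and 39 (n = 16) it was 0.619, 0.731, 0.456 and 0.143. The coefficient of Ctse was thus lower than among the nodules (0.965), and that of Krt20 was not (0.666). These pools mix groups whose levels differ, so the aHCC were also taken alone. Over the 9 aHCC r was 0.805 for Tff3, 0.799 for Tspan8, 0.656 for Krt20 and 0.492 for Ctse, and without sample 29 (n = 8) it was 0.756, 0.765, 0.725 and 0.267. Tspan8 was lowest in the aHCC with the lowest Krt19, samples 28 and 30 (Tspan8 9.13 and 8.80), and highest in samples 34 and 36 (10.84 and 11.01), where Krt19 read 13.02 and 13.00. In the same sample 36 Ctse read 8.31, the lowest of the aHCC.

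**Figure D3:**
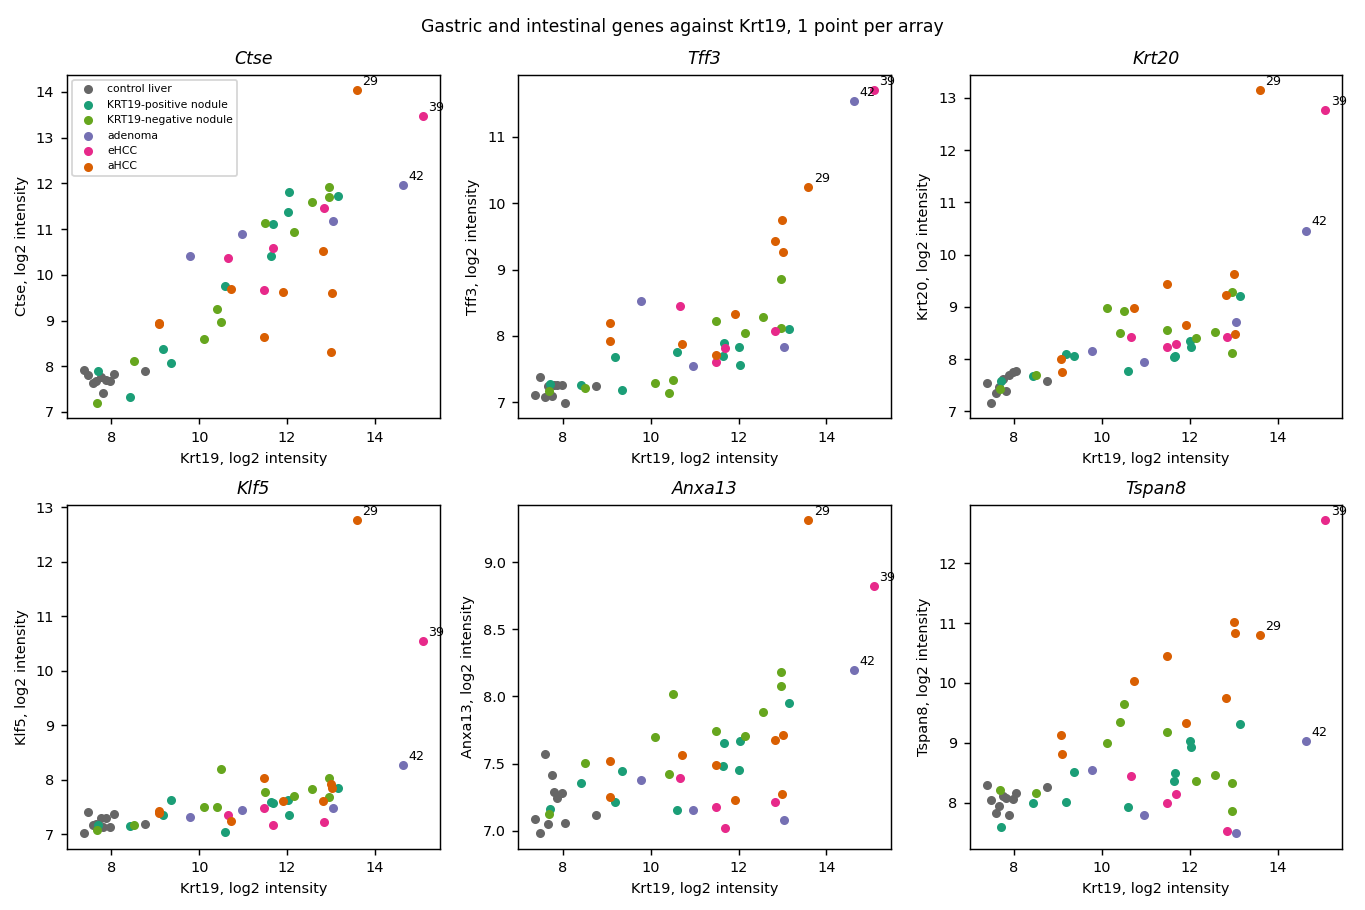
Log2 intensity of 6 of the genes against that of Krt19, 1 point per array and coloured by group. Ctse rises along with Krt19 among the nodules (r = 0.965 over 20 nodules), Tspan8 rises along with Krt19 among the aHCC (r = 0.799 over 9 aHCC), and arrays 29 and 39 lie far above the rest for Klf5 and Krt20.

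How the genes correlated with each other depended on samples 29 and 39 for some pairs and not for others. Leaving Reg4 aside, 15 pairs included Tff1 or Gkn2. Of these, 11 had r of 0.5 or more over 48 arrays and 0 without the 2 arrays, as between Klf5 and Tff1 (0.934, and -0.177 without) and between Gkn2 and Tff1 (0.880, and 0.140 without). Tff1 was detected in 4 of 48 arrays and Gkn2 in 11, so this fall was built into the choice of genes. Of the other 21 pairs, 20 had r of 0.5 or more over 48 arrays and 13 without the 2 arrays. The share over all pairs of genes was not computed. Those 13 included Krt20 with Klf5 (0.746 without), Krt20 with Tff3 (0.721), Anxa13 with Klf5 (0.714), Tspan8 with Krt20 (0.637) and Anxa13 with Muc1 (0.620). All arrays were taken to share 1 quantile normalization, a step the sources do not give, and levels near the detection limit carry little information.

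For the 9 genes detected in at least 10 arrays, the genes most like them over 48 arrays were listed by Pearson's r. The nearest to Ctse were Ampd3 (0.960), Tspan3 (0.944) and Tmbim1 (0.923), and without samples 29 and 39 they gave 0.955, 0.942 and 0.914. The nearest to Gkn2 were Prap1 (0.977), Duox2 (0.955) and Mlph (0.934), and without those samples they gave 0.098, 0.258 and -0.061. Klf5 was followed by Gcnt3, Kcnq1 and Ttc22 (0.945 to 0.956, and 0.540 to 0.641 without the 2 arrays). Tff3 was nearest to Cln6, Adgrg1 and Cxadrl1 (0.890 to 0.917, and 0.818 to 0.885). For Krt20 they were A3galt2, Lad1 and Serpinb6a, for Muc1 Mal, Fxyd3 and Gcnt3, and for Anxa13 St14, Rap1gap and Lad1. For Tspan8 they were Plet1, Aoc1 and Pdzk1ip1, and for Reg4 Cfap126, Mtfr1l and Crem. Over 48 arrays r for these genes lay between 0.746 and 0.917. Without the 2 arrays Muc1 gave 0.495 with Mal, 0.713 with Fxyd3 and 0.604 with Gcnt3. For Krt20, Anxa13, Tspan8 and Reg4 r without them lay between 0.655 and 0.841. The lists of Ctse and Tff3 thus held their coefficients without the 2 arrays, and that of Gkn2 did not.

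What else was raised in aHCC 29 was listed by the lead of that array over the next of the 48. The 15 genes with the largest lead were Prap1, Plek2, Slurp1, Fst, Gkn2, Ccn5, Tnk2, Cst6, Inpp5j, Ramp1, Entpd2, Enpp1, Duox2, Smim22 and Fkbp5. Prap1, a secreted protein of the intestinal epithelium, read 13.09 in aHCC 29, against 7.55 at most elsewhere. Duox2, an oxidase of gut and thyroid epithelium that makes hydrogen peroxide, read 11.28 in aHCC 29 and 8.64 in eHCC 39, against 6.95 to 7.54 in the other 46 arrays. Fst, the activin-binding protein follistatin, read 13.90 in aHCC 29, against 9.29 at most elsewhere. Klf5 and Tff1 held ranks 25 and 26 in this order, and Ctse, Anxa13 and Krt20 ranks 682, 801 and 973 of 13314.

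**Figure D4:**
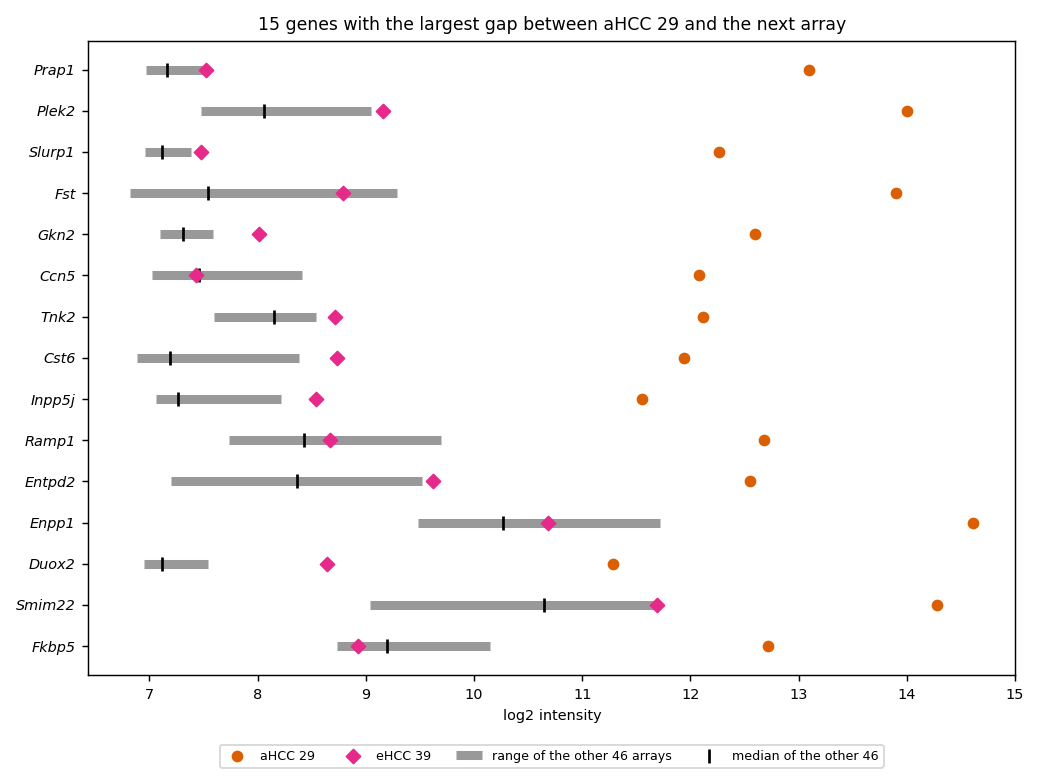
Log2 intensity of the 15 genes with the largest lead of aHCC 29 over the next array, with circles for aHCC 29, diamonds for eHCC 39, grey bars for the range of the other 46 arrays and ticks for their median. Gkn2 is at 12.60 in aHCC 29 and at most 7.59 in the other 46. For Plek2, Slurp1, Gkn2, Tnk2, Cst6, Inpp5j, Entpd2 and Duox2, eHCC 39 lies above those 46. For Prap1, Fst, Ccn5, Ramp1, Enpp1, Smim22 and Fkbp5 it does not.

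Genes of the stomach and intestine outside the 10 were taken from 5 lists (gastric surface and neck mucous cells, gastric glands, enterocytes and brush border, goblet and Paneth cells, and transcription factors of the gut). Of their 96 genes, 70 had a probe and 35 passed the detection filter. In aHCC 8 of the 35 were called higher and 9 lower (48.6%, against 38.0% of all features), with a median difference of 0.00029. In eHCC 8 were called higher and 8 lower (45.7%, against 32.2% of all features), and in adenomas 6 and 5 (31.4%, against 26.0%). In nodules labelled KRT19-positive the counts were 5 and 4 (25.7%, against 18.7%), and in those labelled KRT19-negative 5 and 5 (28.6%, against 19.5%). These genes did not move in 1 direction.

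Among enterocyte genes, 5 of 13 tested were called higher in aHCC and 3 lower. Across all features 19.2% were called higher in aHCC and 18.8% lower, which is the background for each list here. Ezr, the ezrin that ties microvilli to the cytoskeleton, read 8.98 ± 0.34 in aHCC (SD, n = 9), against 7.73 ± 0.19 in control liver (SD, n = 10), a 2.37-fold difference (limma, adjusted p = 4.6e-06). Fabp2, the intestinal fatty acid-binding protein, was 2.17-fold higher (limma, adjusted p = 1.3e-06), and Heph, Lgals2 and Cdhr5 were also called higher. Cdh17, the liver-intestine cadherin that rat liver makes in abundance, fell: it read 9.01 ± 1.19 in aHCC, against 12.27 ± 0.19 in control liver (limma, adjusted p = 2.0e-08). Anpep and Slc5a1 were called lower as well. Among 13 gut transcription factors tested, Ascl2 and Elf3 were called higher and Atoh1, Foxa1, Foxa3, Gata4 and Nr5a2 lower. Mmp7, a Paneth cell protease, was the only gene of 4 tested secretory genes called: it was detected in 9 of 9 aHCC, against 0 of 10 control livers, and Sult1c2 was the only gastric surface gene called, 1.94-fold lower.

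Samples 29 and 39 shared Lgals4 with the single-array genes. This galectin of the intestinal epithelium read 14.09 in aHCC 29 and 12.19 in eHCC 39, against 6.78 to 7.53 in the other 46 arrays. It was detected in 3 arrays and so entered no test. Vsig1, a junction protein of the stomach, read 8.32 in aHCC 29 and 7.88 in eHCC 39, against 7.47 at most elsewhere, while Cdhr2, a brush border cadherin, read 8.56 and 8.04, against 7.55 at most.

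Detection of the other stomach and intestine genes in these 2 arrays differed by list. Of the 70 with a probe, 24 were detected in aHCC 29 and 38 in eHCC 39, and 8 and 15 of them lay above all of the other 46 arrays. For comparison, 8689 of all 22523 probes were detected in aHCC 29 and 11434 in eHCC 39. The share of all probes above or below the other 46 arrays was not computed, so counts outside that range are descriptions. Enterocyte genes were detected in 10 and 15 of 19 cases and gut transcription factors in 8 and 13 of 16. Tff2, Gkn1, Gast, Lipf and Kcne2 were detected in 0 of 48 arrays, as were Alpi and Mep1a of the brush border. Of 11 gastric gland genes with a probe, 0 were detected in aHCC 29, 2 in eHCC 39 (Pga5 and Ghrl), and 0 lay above all of the other 46 arrays in either. Of 17 goblet and Paneth genes, 3 were detected in aHCC 29 and 5 in eHCC 39. Cdx2, the main homeobox factor of intestinal identity, read 7.37 in aHCC 29 and 7.41 in eHCC 39, within the range of the other arrays, and was not detected in aHCC 29. Of the 16 gut transcription factors, 3 lay above all of the other 46 arrays in aHCC 29 (Gata6 at 8.41, Elf3 and Ascl2). There, 3 lay below them (Hnf4a at 7.02, Foxa1 at 7.14 and Foxa3). In eHCC 39, 5 lay above them (Gata4, Gata6, Klf4, Elf3 and Ehf) and 1 below (Nr5a2).

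Markers of other cells moved in the same arrays. Of 6 hepatocyte genes, Ttr (10.81), Cps1 (8.70), Cyp2e1 (9.82) and Serpina1 (13.91) lay below all of the other 46 arrays in aHCC 29. Alb (15.41) and Tf (15.22) lay within their range, close to the highest log2 intensity of any probe (15.54). Whether the top of the scale hid a fall in Alb or Tf was not tested. In eHCC 39, Ttr, Cps1 and Cyp2e1 lay below that range, whereas Alb (14.98), Tf (15.37) and Serpina1 (14.97) lay within it. There, 6 of 12 biliary and progenitor genes lay above the range of the other 46 arrays, among them Krt19 (15.08), Krt7 (9.91) and Prom1 (11.07). In aHCC 29, Krt8 (15.28) was the only gene of those 12 above the range. Among 5 smooth muscle genes with a probe, Des (8.58) and Actg2 (8.79) were highest in aHCC 29. In that array Tagln (8.23) lay within the range of the other 46 arrays, and Cnn1 and Synpo2 were not detected. In eHCC 39, Tagln (9.25) was the only 1 of these 5 above the range. Among 2 mesothelial genes with a probe, Msln was highest in eHCC 39 at 12.39, and Wt1 was detected in 0 arrays. Of 11 pancreatic acinar genes, 2 were detected in aHCC 29 and 4 in eHCC 39. The share of all probes above or below the other 46 arrays was not computed, so the counts of marker genes outside the range are descriptions. The part of any of these cells in the levels of the 10 genes was not tested.

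**Figure D5:**
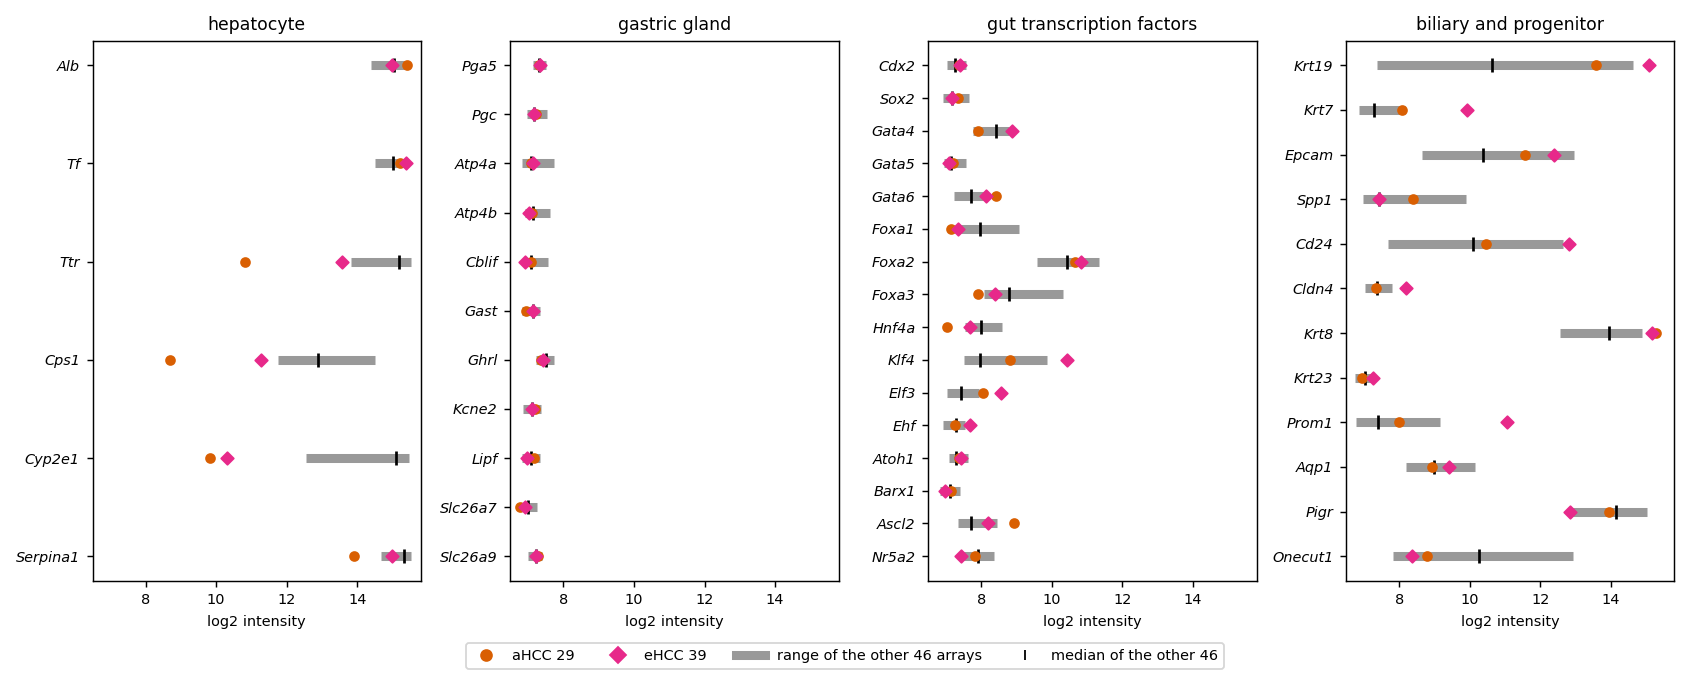
Log2 intensity of genes of 4 marker lists, with circles for aHCC 29, diamonds for eHCC 39, grey bars for the range of the other 46 arrays and ticks for their median. Ttr, Cps1 and Cyp2e1 lie below the other arrays in both samples, none of the gastric gland genes lies above the range, and several biliary and progenitor genes lie above the range in eHCC 39.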

How the data were processed

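Messenger RNA of 48 microdissected rat liver samples was measured on single-colour Illumina arrays. For 22523 probes the authors deposited an intensity and a detection p-value in every array. The submitters' processing notes name BeadStudio 3.0.19.0. The deposited intensity is named non-normalized, but array medians lay between 159.0 and 159.6, so it was taken as quantile-normalized. The background was not subtracted (lowest value 96.8), which shrinks folds of dim genes. The normalization step is not given in the sources used here, although the design had foreseen neqc on raw values. With normalized values, log2 of the deposited intensity was used, and neqc became an alternative.

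Probes with a detection p-value under 0.05 in at least 4 arrays were kept, and the probe with the highest mean stood for each gene (9273 genes and 4206 unnamed probes). All 6 groups, taken from the titles, were fitted together (lmFit and eBayes, limma 3.58.1, R 4.3.3), with Benjamini-Hochberg adjustment over 13479 features. On simulated data for aHCC minus control liver, with changes placed in these 13479 features, 91 of 100 changes of 1 log2 unit and 100 of 100 of 2 units were recovered. A gene undetected in all control livers has a lower bound ("at least") set against each control array's lowest detected intensity. The precision is limited by the number of arrays.

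Named genes were the 10 genes and Krt19, list genes called in aHCC (up to 8 per list), the 15 genes with the largest lead of aHCC 29, and the 3 genes most like each of the 10 that was detected in at least 10 arrays. Lgals4, Vsig1, Cdhr2 and the markers described in samples 29 and 39 were named after their values were seen. The genes and lists were chosen with earlier results of these data known. Alternatives were neqc, other filters, another probe rule, array weights, a trended prior, the set of 12 as a block, fits within sets, and leaving out single samples.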

Additional observations from a re-analysis of the deposited data

Results flagged for a closer look

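Dixon's test at the 95% level compared the highest or lowest sample of each group with the rest, for 60 combinations of gene and group, and marked 17. Chance marks about 1 in 20 groups, but these genes were chosen from the same levels, partly for being raised in a single array. The marks are therefore a description and no support, and most fall in the same 2 arrays. In aHCC 29 the marked levels were Tff1 at 13.98 log2 intensity, Gkn2 at 12.60, Klf5 at 12.76, Krt20 at 13.15, Ctse at 14.04, Muc1 at 9.19 and Anxa13 at 9.31. In eHCC 39 they were Tff1 at 11.79, Tff3 at 11.70, Klf5 at 10.54, Krt20 at 12.77, Muc1 at 9.56, Anxa13 at 8.82 and Tspan8 at 12.71. Adenoma 42 was marked for Klf5 at 8.27 and for Reg4 at 7.64, the lowest adenoma. Nodule 1, labelled KRT19-positive, was marked for Krt20 at 9.20.

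Nodules labelled KRT19-positive differed from those labelled KRT19-negative in opposite directions in the 2 sets of samples. The mean log2 difference, KRT19-positive minus KRT19-negative, was 2.66 in samples 1 to 12 and -3.37 in samples 13 to 24 for Krt19. For Ctse it was 2.87 and -3.16, and for Tff3 0.58 and -0.88. The difference between the sets was not tested.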

How the results depend on the processing

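Of the 1485 recomputed differences of the 10 genes and Krt19 from control liver, 1440 moved by less than the spread between samples and none changed sign as a called value. That spread included samples 29 and 39, so a difference that rested on 1 of them could still count among the 1440. Examples are Tff1 in aHCC (0.73, and -0.02 without sample 29) and Tspan8 in eHCC (0.91, and -0.03 without sample 39). The other 45 moved further, under neqc, within a set of 12 or with the set as a block. With the set as a block the features called were 1517 in nodules labelled KRT19-positive, 1529 in those labelled KRT19-negative and 2077 in aHCC, against 2517, 2633 and 5120 without it, and 8 gut genes outside the 10 were called in aHCC, against 17. Within samples 13 to 24, features called were 1290 for KRT19-positive (4 gut genes) and 4215 for KRT19-negative (17 gut genes). Within samples 1 to 12 they were 358 for KRT19-negative (1 gut gene), and within samples 25 to 36 they were 1075 for aHCC (8 gut genes). Array weights gave 5618 for KRT19-negative (18 gut genes). Fits within a set have 2 or 3 control livers and fewer samples. With 1 sample left out in turn, features called ranged from 2084 to 2652 (gut genes 7 to 10) for KRT19-positive, 2124 to 2881 (8 to 11) for KRT19-negative, 2678 to 3483 (10 to 12) for adenomas, 3474 to 4263 (13 to 17) for eHCC and 4850 to 5682 (16 to 20) for aHCC. The settings for the split into classes, medians in place of means, and the values of aHCC alone or without aHCC 29, eHCC 39 or adenoma 42 were chosen after seeing the data. Single-array genes numbered 0 without aHCC 29 and 6 without eHCC 39, against 3, and general genes 4 in both; under neqc Klf5 met both definitions, with 5 general and 3 single-array genes. Levels near background limit Tff1, Gkn2, Muc1 and Anxa13. No paired analysis was possible because sample numbers are not shared between groups.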
